A study of Homo sapiens with 8 samples.

Results

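The 43 genes described here code for the limiting membrane of the lysosome, its acid hydrolases, the proton pump that acidifies it and the transcription factors of the TFEB family. They were picked as a set because LMBRD1 and TPCN1, which were higher with lenalidomide in earlier results of these libraries, code for lysosomal membrane proteins. Of that pair LMBRD1 passed an adjusted p of 0.05 and TPCN1 did not. TPCN1 was chosen on the comparison reported below and its difference is given as a description, while the other 42 genes were taken for the known function of their proteins. All 43 were found by symbol among the 23459 genes of the count table, and all 43 passed the filter on low counts, with between 27 reads (ARSA) and 14492 reads (PSAP) in a library. RNA came from Hct116 cells, an established human colorectal carcinoma line, grown in DMEM and exposed for 16 h to 30 μM lenalidomide or to a matching amount of its solvent DMSO, with 4 replicates of each treatment. Lenalidomide is a thalidomide derivative that binds the cereblon subunit of a cullin-RING ubiquitin ligase and redirects it to new protein substrates. The sample records describe serum-supplemented DMEM, whereas the methods of the study describe a medium exchange to heavy amino acids at the time of treatment, and the same study calls the replicates technical in one place and biological in another. It also states that 2 of the 4 Hct116 replicates were label swaps, so that some cultures of each treatment may have had the reverse exchange of amino acids. The labels do not say which, and the part of this exchange in the results was not tested. The p-values given here therefore measure the spread between these libraries, which may in part be technical.

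Lysosomes are the acidic compartments in which cells break down proteins, lipids and sugars delivered by endocytosis and autophagy. A vacuolar ATPase, made of a cytosolic V1 sector that hydrolyses ATP and a membrane V0 sector that carries protons, sets the acid pH that the hydrolases need, and heavily glycosylated membrane proteins such as LAMP1 shield the membrane from digestion. Some of these genes carry a CACGTG element near their start, to which TFEB, TFE3 and MITF can bind when they enter the nucleus. In colorectal carcinoma cells the pathway matters for nutrient recycling and for the turnover of receptors.

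The libraries held between 35268940 and 37473413 counts with DMSO and between 28218471 and 33659982 with lenalidomide, so that the totals did not overlap between treatments (exact permutation, two-sided, p = 0.0286, which is the lowest value possible with groups of 4). Epithelial markers were high, with summed levels of EPCAM, CDH1, KRT8, KRT18, KRT19 and VIL1 between 2287 and 2587 CPM (reads relative to the TMM-adjusted size of the library) with DMSO and between 2211 and 2544 CPM in the lenalidomide libraries, although VIL1, a brush border protein, had at most 2 reads in any library. Of the 14 markers of blood, fibroblast and endothelial cells, the blood cell list summed to 3.83 to 5.22 CPM in the DMSO libraries and 4.61 to 5.70 CPM in the lenalidomide libraries, the fibroblast list to 2.89 to 3.54 and 2.59 to 3.96 CPM, and the endothelial list to 0.552 to 0.760 and 0.483 to 1.07 CPM. CD68 made up most of the blood cell sum and COL1A1 most of the fibroblast sum, and CD68 itself codes for a lysosomal membrane glycoprotein. PTPRC, the pan-leukocyte marker CD45, had at most 6 reads in any library, with 0 to 0.0535 CPM in the DMSO and 0.0912 to 0.208 CPM in the lenalidomide libraries, while CD3E had at most 2 reads, and the part of such cells in the results was not tested. The 43 genes together took between 0.239% and 0.254% of all counts. In RNA from whole cultures, fewer expressing cells and less RNA per cell cannot be told apart.

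Before any comparison, the levels of the 43 genes were set out per length of transcript, as CPM per kilobase of exon, since levels of different genes can be compared only on that scale. They ranged from 0.281 for ARSA to 137 for PSAP in the DMSO libraries, with a median of 10.5, and 28 of the 43 lay above the median level of the 13925 genes tested. PSAP, the precursor of the saposins that help hydrolases reach membrane lipids, was followed by ATP6V1E1, a stalk subunit of the proton pump, at 103 ± 12.02 CPM per kilobase (SD, n = 4). LAMP1 at 55.5 ± 5.30 and CD63 at 54.9 ± 1.38 CPM per kilobase (SD, n = 4) did not differ beyond their spread. At the other end, ARSA, TFEB, MITF, TPCN2, SMPD1 and MCOLN1 were each below 1 CPM per kilobase. The order of the genes was nearly the same with lenalidomide, and no gene moved by more than 2 places of 43.

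**Figure D1:**
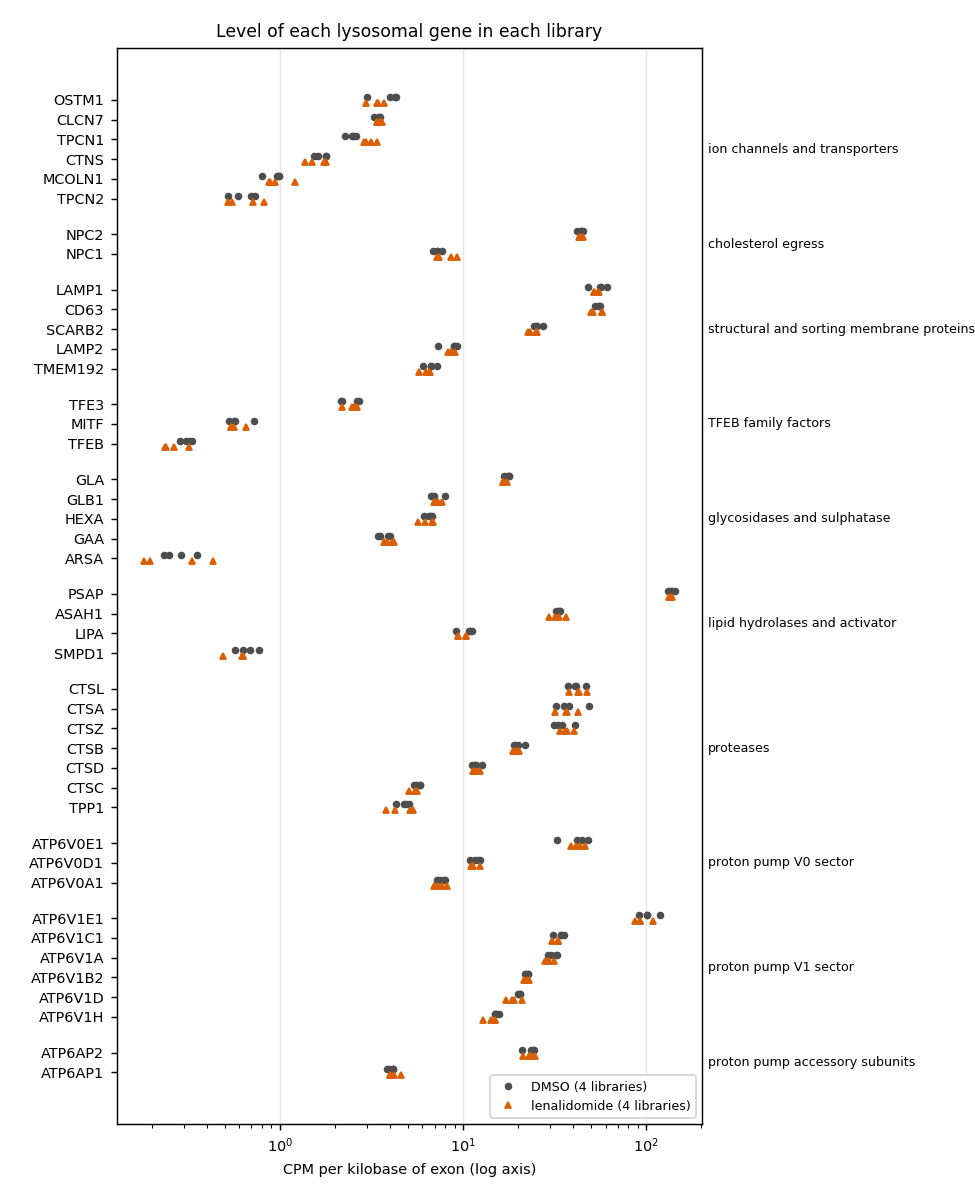
Level of each of the 43 genes in CPM per kilobase of exon on a log axis, by role group, with DMSO libraries as grey circles and lenalidomide libraries as orange triangles (4 each). The genes spread from 0.281 (ARSA) to 137 (PSAP), a range wide beside the distance between libraries of any 1 gene. ARSA was the most variable, at 0.181 to 0.432 in the lenalidomide libraries. TPCN1, chosen on this contrast, was the 1 gene whose treatments did not overlap.

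The 2 treatments were then compared across all 13925 genes by the quasi-likelihood test of edgeR, to ask which RNA levels lenalidomide had altered by 16 h. None of the 43 genes passed an adjusted p of 0.05 by this test, by DESeq2 or by edgeR's likelihood ratio test, where 0.0144% of all genes tested passed by the first of these. Leaving TPCN1 aside, 1 of the 42 other genes, NPC1, was higher at an unadjusted p under 0.05, beside 3.26% of all genes tested, and none was lower, beside 0.919%. In either direction the share of all genes was 4.18%. The adjusted p of each of the 42 genes other than TPCN1 was 0.999 (quasi-likelihood test of edgeR, Benjamini-Hochberg). TPCN1 was the 1 gene of 43 whose 4 lenalidomide values did not overlap the 4 DMSO values, beside 1.24% of all genes tested that were higher without overlap and 2.08% in either direction, and it had been chosen for that difference. No member was lower without overlap, beside 0.84% of all genes. The log2 fold change of lenalidomide over DMSO had a median of -0.024 over the 43 genes and 0.0025 over all genes tested, and it was above 0 for 15 of the 43 (34.9%), beside 51.3% of all genes. It was under 0.1 in size for 35 of the 43 (81.4%), beside 71.9% of all genes.

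The libraries also set a limit on what could have been missed. The 95% confidence intervals stayed within a change of 1.5-fold in either direction for all 43 genes, within 1.25-fold for 35 and within 1.2-fold for 31. Intervals were narrowest for ATP6V1B2, with a half-width of 0.10, and widest for the rare ARSA transcript, with a half-width of 0.56. The coefficient of variation within treatments had a median of 6.72% over the 43 genes and 7.90% over all genes tested. For 4 of the 43 genes the interval lay within 1.1-fold, so that shifts of that size could not be resolved for most of the set.

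**Figure D2:**
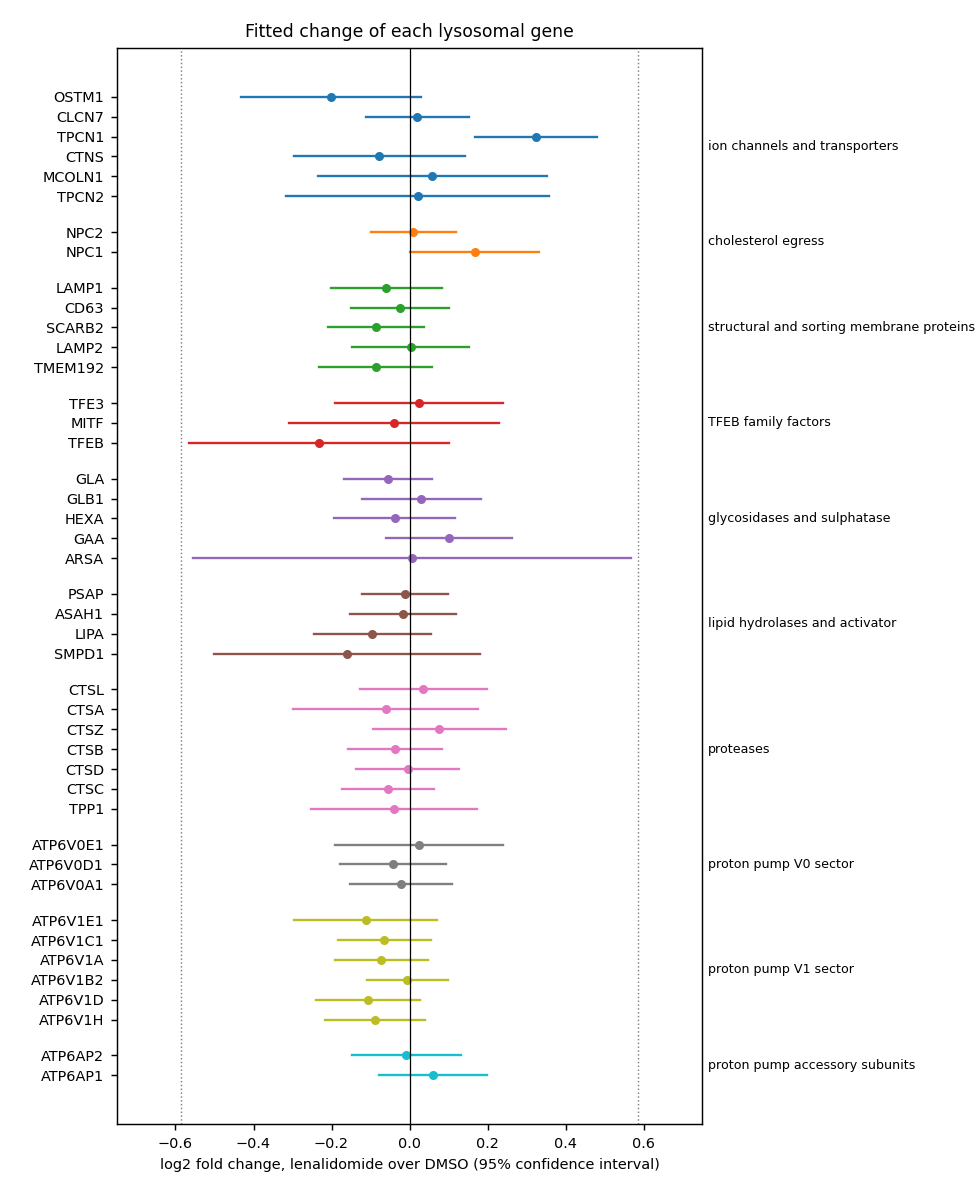
Log2 fold change of lenalidomide over DMSO for each of the 43 genes, by role group, with 95% confidence intervals from edgeR's quasi-likelihood fit. All intervals lie within the dotted lines, which mark a change of 1.5-fold. Of the 43 intervals 41 include 0, the exceptions being NPC1 and TPCN1, which was chosen on this contrast.

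Ion channels and transporters of the lysosomal membrane made up 6 of the 43 genes, among them TPCN1, which was chosen for its difference. Of the 42 genes other than TPCN1, the estimate largest in size was that of TFEB, -0.23, in another group. TPCN1 (Entrez gene 53373; chromosome 12 of GRCh37, 113658855 to 113736390, plus strand) codes for a cation channel of endosomes and lysosomes that is gated by a phosphoinositide. It had 15.8, 16.5, 15.5 and 14.2 CPM in DMSO replicates 1 to 4 and 19.7, 18.2, 18.5 and 21.3 CPM in lenalidomide replicates 1 to 4. Every lenalidomide library was thus above every DMSO library, with means of 15.5 ± 0.942 and 19.4 ± 1.41 CPM (SD, n = 4 each). The log2 fold change was 0.32 (standard error 0.073), for which no p-value is printed because the gene was chosen on this contrast. IQCD on the opposite strand shares 0.516% of its annotated exonic bases.

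TPCN2 (Entrez gene 219931), the second two-pore channel of these membranes and the more strictly lysosomal of the pair, had 3.48, 4.08, 3.07 and 4.30 CPM in the DMSO libraries and 4.18, 3.23, 3.04 and 4.78 CPM in the lenalidomide libraries. The treatments overlapped almost completely, and the log2 fold change of 0.021 had 95% confidence limits of -0.32 and 0.36. MCOLN1 (Entrez gene 57192), the calcium and iron release channel whose activity drives TFEB into the nucleus, had 2.54, 3.12, 3.07 and 3.12 CPM in the DMSO libraries and 2.98, 2.75, 2.80 and 3.85 CPM in the lenalidomide libraries. Its log2 fold change was 0.059 (95% confidence interval -0.23 to 0.35). Per length, TPCN1 exceeded TPCN2 by 3.95 ± 0.694-fold in the DMSO libraries and by 4.87 ± 0.716-fold in the lenalidomide libraries (SD, n = 4 each), and the range of this ratio overlapped between treatments. Another annotated gene on the same strand covers 22.4% of the exonic bases of TPCN2, and its part in this ratio was not tested.

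The chloride-proton exchanger CLCN7 and its partner OSTM1, which need each other for stability, stood at similar levels of 3.44 ± 0.106 and 3.88 ± 0.609 CPM per kilobase with DMSO (SD, n = 4). Genes on the opposite strand cover 15.7% of the annotated exonic bases of CLCN7 and none of those of OSTM1. CLCN7 was steady, with a log2 fold change of 0.020 (95% confidence interval -0.11 to 0.15). OSTM1 had 17.9, 19.0, 13.4 and 19.2 CPM in the DMSO libraries and 13.3, 15.1, 16.6 and 15.4 CPM in the lenalidomide libraries. DMSO replicate 3 fell among the lenalidomide values, so that the groups overlapped (two-sided exact permutation test, p = 0.171). Its log2 fold change of -0.20 (95% confidence limits -0.43 and 0.029) became -0.31 without DMSO replicate 3. CTNS, the cystine exporter, had a log2 fold change of -0.078 with an interval from -0.30 to 0.14.

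**Figure D3:**
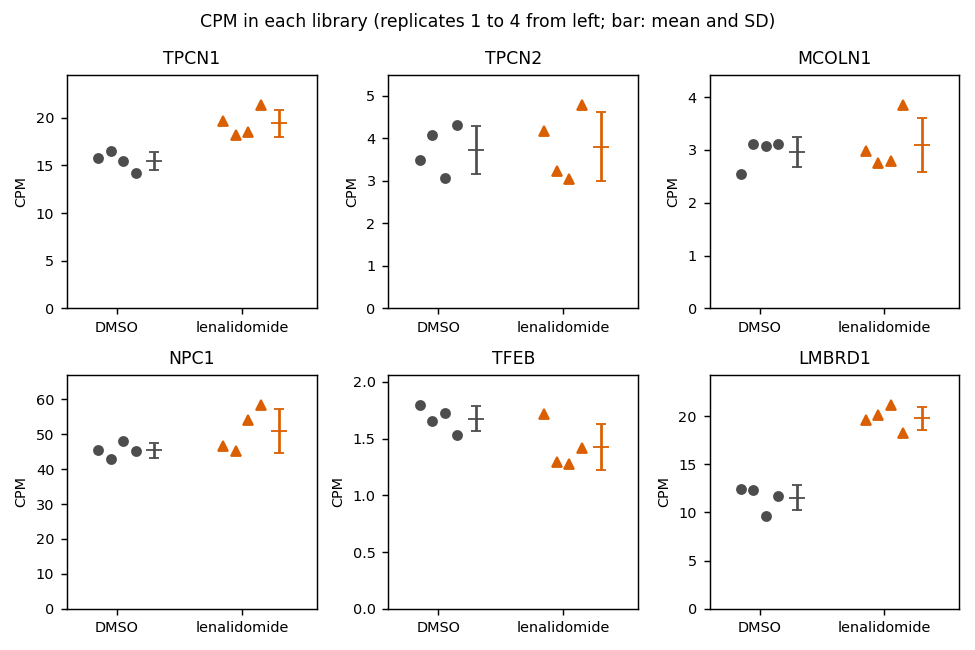
CPM of TPCN1, TPCN2, MCOLN1, NPC1, TFEB and LMBRD1 in each library, replicates 1 to 4 from left to right, with the mean and SD of each treatment beside the points. TPCN1 and LMBRD1, whose rise was known beforehand, separated by treatment, and the other 4 genes overlapped. TPCN1 had at most 16.5 CPM in the DMSO libraries and at least 18.2 with lenalidomide.

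Of the proteins that move cholesterol out of the lysosome, NPC2 binds it in the lumen and hands it to NPC1 in the membrane. NPC1 (Entrez gene 4864) had 45.4, 42.99, 48.1 and 45.1 CPM in the DMSO libraries and 46.5, 45.1, 54.0 and 58.3 CPM in the lenalidomide libraries. Lenalidomide replicates 3 and 4 lay above all DMSO values, whereas replicates 1 and 2 lay among them (two-sided exact permutation test, p = 0.171). The log2 fold change was 0.17 (standard error 0.077, adjusted p = 0.999 by edgeR's quasi-likelihood test) and dropped to 0.098 without lenalidomide replicate 4. RMC1 on the opposite strand covers 6.38% of the annotated exonic bases of NPC1, and reads of both strands may have been counted. NPC2 was among the most even genes of the set, at 43.8 ± 1.39 and 44.1 ± 0.863 CPM per kilobase (SD, n = 4 each), with log2 fold change 0.010 (95% confidence interval -0.099 to 0.12). Per length NPC2 exceeded NPC1 in each library, by 4.64-fold to 6.59-fold.

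The structural and sorting proteins of the membrane showed small differences, with log2 fold changes between -0.086 and 0.0032 in all 5. LAMP1 and LAMP2, the glycoproteins that line the inner face of the membrane, differed in level, with LAMP1 6.46 ± 0.358-fold above LAMP2 per length in the DMSO libraries and 6.18 ± 0.400-fold in the lenalidomide libraries (SD, n = 4 each). LAMP1 had 155, 144, 123 and 142 CPM in the DMSO libraries and 139, 131, 132 and 140 CPM in the lenalidomide libraries, so that both its highest and its lowest value came from DMSO libraries. SCARB2, which escorts glucocerebrosidase to the lysosome, stood at 25.5 ± 1.23 and 24.0 ± 1.40 CPM per kilobase with DMSO and lenalidomide. TMEM192, a protein much used as a handle to isolate lysosomes, was the lowest of the group at 6.66 ± 0.486 CPM per kilobase (SD, n = 4). CD63, a tetraspanin shared with exosomes, had a log2 fold change of -0.024 (95% confidence interval -0.15 to 0.10).

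The TFEB family factors were all scarce. TFE3 led at 2.42 ± 0.294 CPM per kilobase with DMSO, followed by MITF at 0.596 ± 0.0857 and TFEB at 0.312 ± 0.0208 (SD, n = 4 each), and TFE3 exceeded TFEB by 6.45-fold to 10.3-fold in the 8 libraries. TFEB (Entrez gene 7942) had 1.79, 1.66, 1.72 and 1.53 CPM in the DMSO libraries and 1.72, 1.297, 1.28 and 1.42 CPM in the lenalidomide libraries. Lenalidomide replicates 2, 3 and 4 were below all DMSO values and replicate 1 was not (two-sided exact permutation test, p = 0.0857). The log2 fold change of -0.23 had a 95% confidence interval from -0.57 to 0.10, the lowest estimate of the 43 genes, from a gene with as few as 41 reads in a library. TFE3 and MITF, with log2 fold changes of 0.024 and -0.040, overlapped between treatments in full. The factors act mainly through their location in the cell, which RNA levels do not measure.

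Promoters of the 43 genes were searched for CACGTG, the core element of this family, and for TCACGTG, which contains it. The RefSeq windows of GRCh38.p14, from 250 bases before to 50 after each gene's start, were at hand for 32 of the 43 genes. CACGTG was found in 7 of these 32 windows (21.9%), beside 9.70% of the 10849 windows of genes tested here and 7.19% of all 27305 windows. Each of the 7 also held TCACGTG on at least 1 strand, beside 5.69% of the windows of genes tested. The 7 belong to the channel MCOLN1, the exchanger CLCN7, LAMP1, the hydrolases GAA, CTSA and CTSD and the pump subunit ATP6V0D1, and none to the TFEB family itself. The other 25 windows lacked it. The 7 were picked for holding the element and are shown so that its place and number can be compared among them. The bases before each start are printed in the direction of transcription, up to 1 base before it, or up to 11 bases before it for LAMP1, with each CACGTG in capitals.
MCOLN1 (chr19:7522534-7522623, plus strand): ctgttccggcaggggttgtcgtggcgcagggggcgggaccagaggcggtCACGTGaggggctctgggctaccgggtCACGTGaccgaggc
CLCN7 (chr16:1475029-1475118, minus strand): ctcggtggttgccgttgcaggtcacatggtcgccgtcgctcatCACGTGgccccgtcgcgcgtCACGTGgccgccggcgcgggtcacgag
LAMP1 (chr13:113297039-113297228, plus strand): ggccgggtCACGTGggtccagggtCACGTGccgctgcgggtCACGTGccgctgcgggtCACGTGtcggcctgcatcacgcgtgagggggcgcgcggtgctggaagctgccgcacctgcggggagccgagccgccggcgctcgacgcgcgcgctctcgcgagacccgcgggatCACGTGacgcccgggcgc
GAA (chr17:80101491-80101580, plus strand): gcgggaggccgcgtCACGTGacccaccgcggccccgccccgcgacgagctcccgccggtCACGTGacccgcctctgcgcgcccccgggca
CTSA (chr20:45891245-45891334, plus strand): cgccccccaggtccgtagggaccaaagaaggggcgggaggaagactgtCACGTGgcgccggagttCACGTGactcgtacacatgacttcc
CTSD (chr11:1763928-1764017, minus strand): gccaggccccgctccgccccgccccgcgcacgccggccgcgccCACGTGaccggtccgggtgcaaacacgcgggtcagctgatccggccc
ATP6V0D1 (chr16:67481158-67481247, minus strand): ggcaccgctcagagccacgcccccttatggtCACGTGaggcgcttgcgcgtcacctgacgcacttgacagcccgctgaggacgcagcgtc
LAMP1 held 5 elements in the stretch shown and a further one that begins 1 base before its start. In the other 6 genes the elements began between 14 and 76 bases before the start. A match of letters is not a measured binding site. The genes with the element had log2 fold changes between -0.061 and 0.10, with a median of -0.0048, and the 25 with a window but no element had a median of -0.039. Over all genes tested, the median was -0.0038 for the 1052 with the element and 0.0013 for the 9797 without it.

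Glycosidases and the sulphatase of the set strip sugars and sulphate groups from glycolipids and glycogen. GLA, alpha-galactosidase A, was the highest at 17.5 ± 0.565 CPM per kilobase with DMSO and 16.9 ± 0.378 with lenalidomide (SD, n = 4 each), with a log2 fold change of -0.056 and an exact permutation p of 0.0857 (two-sided, n = 4 each). GLB1, HEXA and GAA stood between 3.71 and 7.09 CPM per kilobase with DMSO and had log2 fold changes of 0.031, -0.038 and 0.10. GAA, the enzyme that degrades glycogen in lysosomes, had 14.7, 15.01, 12.9 and 13.3 CPM in the DMSO libraries and 15.96, 14.02, 14.5 and 15.6 CPM in the lenalidomide libraries, with 2 of the 4 lenalidomide values above all DMSO values. ARSA, which removes sulphate from sulphatides, was the most variable of the 43 genes. It had 1.12, 1.297, 1.05 and 1.58 CPM in the DMSO libraries and 1.95, 0.814, 0.882 and 1.49 CPM in the lenalidomide libraries, so that the highest and the lowest value were both from lenalidomide libraries.

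Lipid hydrolases and their activator spanned the widest range of levels. PSAP had 388, 381, 407 and 370 CPM in the DMSO libraries and 378, 386, 379 and 391 CPM in the lenalidomide libraries, and its log2 fold change of -0.012 had a 95% confidence interval from -0.12 to 0.099. ASAH1, the acid ceramidase, stood at 33.2 ± 0.808 and 32.8 ± 2.99 CPM per kilobase with DMSO and lenalidomide (SD, n = 4 each). LIPA, which frees cholesterol from lipoprotein esters, had a log2 fold change of -0.096 (95% confidence interval -0.25 to 0.055). SMPD1, acid sphingomyelinase, was the lowest of the group, at 0.666 ± 0.0849 and 0.594 ± 0.0675 CPM per kilobase (SD, n = 4 each). All 4 estimates of this group were below 0, where 51.3% of all genes tested were above 0, and each of the 4 intervals included 0.

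The proteases included the cathepsins and TPP1, which trims tripeptides from the ends of proteins. CTSL and CTSA were the highest, at 41.6 ± 3.79 and 38.6 ± 7.07 CPM per kilobase with DMSO (SD, n = 4 each), which did not differ beyond their spread, and TPP1 was the lowest at 4.76 ± 0.323. All 7 had log2 fold changes of less than 0.1 in size, from -0.061 for CTSA to 0.076 for CTSZ. CTSD, the main aspartic protease of lysosomes, was nearly flat, with a log2 fold change of -0.0048 and a 95% confidence interval from -0.14 to 0.13. Genes on the opposite strand cover 21.5% of the annotated exonic bases of CTSA and 31.7% of those of CTSZ, and other annotated genes cover 27.3% of those of CTSD on the same strand.

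CTSA, the carboxypeptidase that also protects beta-galactosidase, varied most among the proteases. It had 86.4, 81.7, 112 and 74.1 CPM in the DMSO libraries and 84.8, 97.45, 73.2 and 83.6 CPM in the lenalidomide libraries. The high values came from DMSO replicate 3 and lenalidomide replicate 2, and the same libraries were the highest of their treatment for CTSB, CTSL and CTSZ. Without DMSO replicate 3 the log2 fold change of CTSA was 0.067, the opposite sign of the value over all libraries, -0.061. ATP6V1E1 of the proton pump had the same order at its top, with 168 CPM in DMSO replicate 3 and 154 CPM in lenalidomide replicate 2, against 122 to 142 CPM in the other 6 libraries. MITF, ASAH1 and CD63 were also highest of their treatment in these libraries. Over all genes tested, the deviations of these libraries from their treatment means correlated at 0.18, the highest of the 12 pairs of unlike number.

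The proton pump was represented by 11 genes, of which 9 had log2 fold changes below 0 and 2 (18.2%) above 0, beside 51.3% of all genes tested above 0. None of the 11 had an interval that excluded 0. In the membrane sector ATP6V0E1, a small subunit, stood at 41.8 ± 6.79 CPM per kilobase, ATP6V0D1 at 11.8 ± 0.617 and ATP6V0A1, which forms the proton path, at 7.64 ± 0.319 (SD, n = 4 each, DMSO). ATP6V0E1 had 36.9, 42.6, 28.6 and 39.4 CPM in the DMSO libraries and 36.5, 38.5, 40.8 and 34.1 CPM in the lenalidomide libraries. Its spread came mostly from DMSO replicate 3.

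In the cytosolic sector the catalytic subunit ATP6V1A and its non-catalytic partner ATP6V1B2, present in equal copies in the assembled pump, were at 31.1 ± 1.65 and 22.2 ± 0.470 CPM per kilobase with DMSO, and their ratio was between 1.29 and 1.49 in the 8 libraries. ATP6V1E1 exceeded ATP6V1A by 2.83-fold to 4.11-fold. All 6 genes of this sector in the set had log2 fold changes below 0, from -0.0056 for ATP6V1B2 to -0.11 for ATP6V1E1, with a median of -0.081. Over all genes tested the median was 0.0025 and 51.3% were above 0. All 6 intervals of the sector included 0, and 0 of the 6 genes reached an unadjusted p under 0.05. Further tested subunits of the sector lay on both sides of 0. ATP6V1F had a log2 fold change of 0.079 and ATP6V1C2, at 1.23 ± 0.107 CPM in the DMSO libraries (SD, n = 4), one of 0.21. ATP6V1G1, ATP6V1E2 and ATP6V1G2 had log2 fold changes of -0.076, -0.072 and -0.049. The intervals of these further subunits included 0 as well. ATP6V1D, a subunit of the central rotor, had 36.2, 36.97, 36.6 and 36.9 CPM in the DMSO libraries and 34.1, 33.3, 37.9 and 31.0 CPM in the lenalidomide libraries. Lenalidomide replicates 1, 2 and 4 were below all DMSO values while replicate 3 was above them (two-sided exact permutation test, p = 0.143). ATP6V1H, a regulatory subunit and the lowest per length of the 6, had a log2 fold change of -0.089 (95% confidence interval -0.22 to 0.039).

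The accessory subunits ATP6AP1 and ATP6AP2, which help the pump to assemble and travel, had log2 fold changes of 0.060 and -0.0085. ATP6AP2 exceeded ATP6AP1 by 4.998-fold to 6.10-fold per length in the 8 libraries.

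How the libraries differed among themselves was examined because it limits each of these comparisons. DMSO replicate 2 was the highest of its treatment for 15 of the 43 genes and the lowest for 2, beside 25.7% and 23.0% of all genes tested. DMSO replicate 4 was the highest for 8 and the lowest for 14, beside 21.0% and 21.1%. DMSO replicate 3 was the lowest of its treatment for 18 of the 43 genes and the highest for 11, beside 33.8% and 31.5% of all genes tested. It was the highest for 5 of the 7 proteases and the lowest for the other 2, CTSD and TPP1. Of the 13 membrane protein genes it was the lowest for 7, among them LAMP1, LAMP2, SCARB2, OSTM1 and TMEM192, and the highest for 2. Lenalidomide replicate 4, the smallest library, was the highest of its treatment for 12 of the 43 genes and the lowest for 16, beside 28.5% and 31.2% of all genes tested. It was the highest for 6 of the 13 membrane protein genes, NPC1 and LAMP1 among them, and the lowest for 4, NPC2 and CD63 among them. Of the 11 pump genes it was the highest for ATP6V0A1 and ATP6AP1 and the lowest for 5. The part that library size or preparation had in these patterns was not tested.

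**Figure D4:**
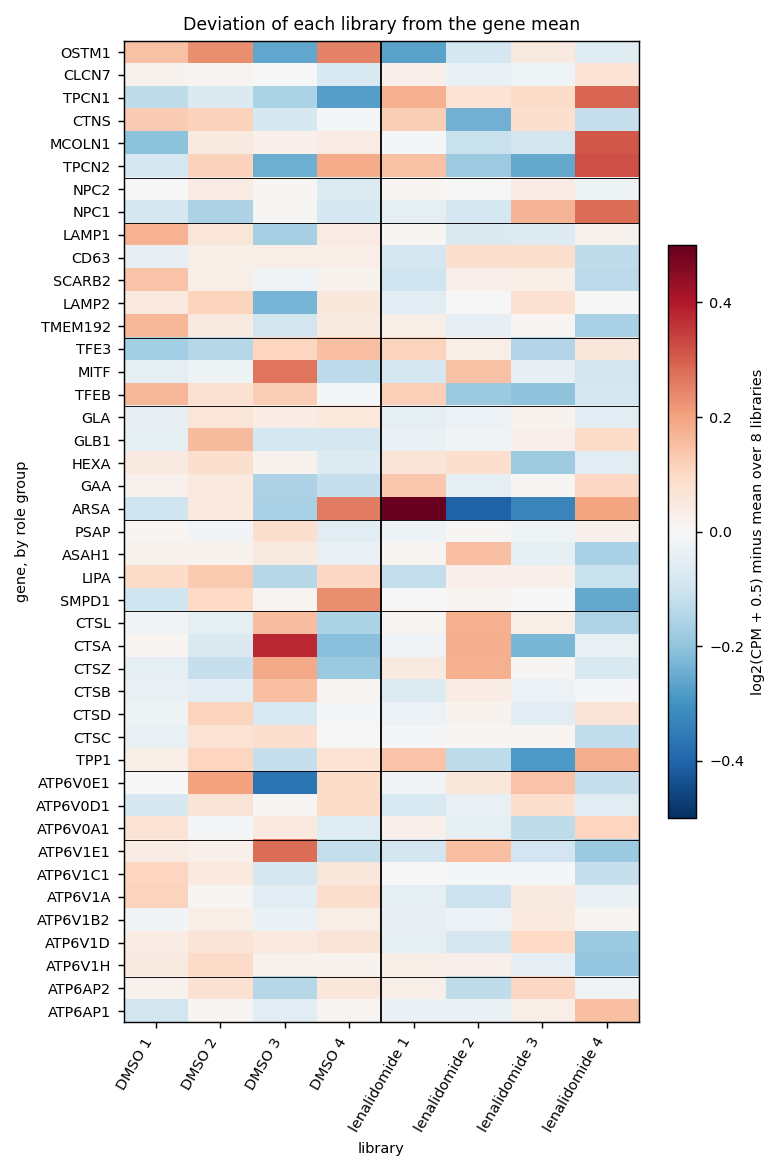
Deviation of each library from the mean of the 8 libraries on the scale of log2(CPM + 0.5), for each of the 43 genes in role groups divided by black lines, with red above and blue below the mean. TPCN1, chosen on this contrast, is the row that changes colour at the line between treatments (at most 16.5 CPM on the left and at least 18.2 on the right). DMSO replicate 3 and lenalidomide replicate 2 show the raised rows of CTSA, CTSB, CTSL and CTSZ. CTSC was above its treatment mean in both, at 44.65 and 42.44 CPM beside means of 43.01 and 41.37. CTSD and TPP1 were the lowest of their treatment in DMSO replicate 3.

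Genes of related lists were taken from the same fit to place the 43 genes. Of 97 further genes for pump subunits, hydrolases, lysosomal membrane proteins, mTORC1 at the lysosome, mannose 6-phosphate sorting and autophagy, 91 were tested. Of these, 1 passed an adjusted p of 0.05, beside 0.0144% of all genes tested. At an unadjusted p under 0.05 there were 3 higher, beside 3.26% of all genes tested, and 1 lower, beside 0.919%. The 3 higher were LMBRD1, IGF2R and SORT1, so that LMBRD1, which the choice of genes had used, is part of both counts. The gene that passed was LMBRD1 (Entrez gene 55788; chromosome 6 of GRCh37, 70382649 to 70577128, minus strand), a lysosomal membrane protein needed to export cobalamin, whose rise was known when the 43 genes were chosen. It had 12.4, 12.4, 9.61 and 11.7 CPM in the DMSO libraries and 19.6, 20.1, 21.1 and 18.3 CPM in the lenalidomide libraries. Its log2 fold change was 0.78, and that of TPCN1 was 0.32.

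The 25 further hydrolases tested had a median log2 fold change of -0.056 and the 11 further pump subunits one of -0.042, and none of either list reached an unadjusted p under 0.05. Of the 15 further membrane proteins LMBRD1, whose rise was known beforehand, alone did so. It and SPNS1, a lysosomal lipid exporter, were the 2 of the 91 related genes tested that were higher without overlap between treatments. None was lower without overlap. Over all genes tested, 1.24% were higher without overlap and 2.08% were without overlap in either direction. SPNS1 had 7.69 ± 0.753 CPM in the DMSO libraries and 8.68 ± 0.0899 CPM in the lenalidomide libraries (SD, n = 4 each), and it was named after its values were seen. Among 21 genes of mTORC1 and its lysosomal anchors, 16 (76.2%) had log2 fold changes above 0, beside 51.3% of all genes tested. Their median was 0.040, beside 0.0025 over all genes tested, and 20 of the 21 intervals included 0. LAMTOR3, a scaffold that ties mTORC1 to the membrane, had a log2 fold change of -0.16 (adjusted p = 0.999 by edgeR's quasi-likelihood test). Of the 9 genes of mannose 6-phosphate sorting, 5 had log2 fold changes above 0 and 4 below, with a median of 0.023. The receptors that carry hydrolases from the Golgi, IGF2R, SORT1 and M6PR, had log2 fold changes of 0.24, 0.18 and -0.017. Each had an adjusted p of 0.999 by the same test. IGF2R had 131, 116, 158 and 135 CPM in the DMSO libraries and 142, 132, 175 and 190 CPM in the lenalidomide libraries, and the treatments overlapped. Without lenalidomide replicate 4 its log2 fold change was 0.15. The 10 autophagy genes had a median of 0.0047 and 0 of them reached an unadjusted p under 0.05.

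**Figure D5:**
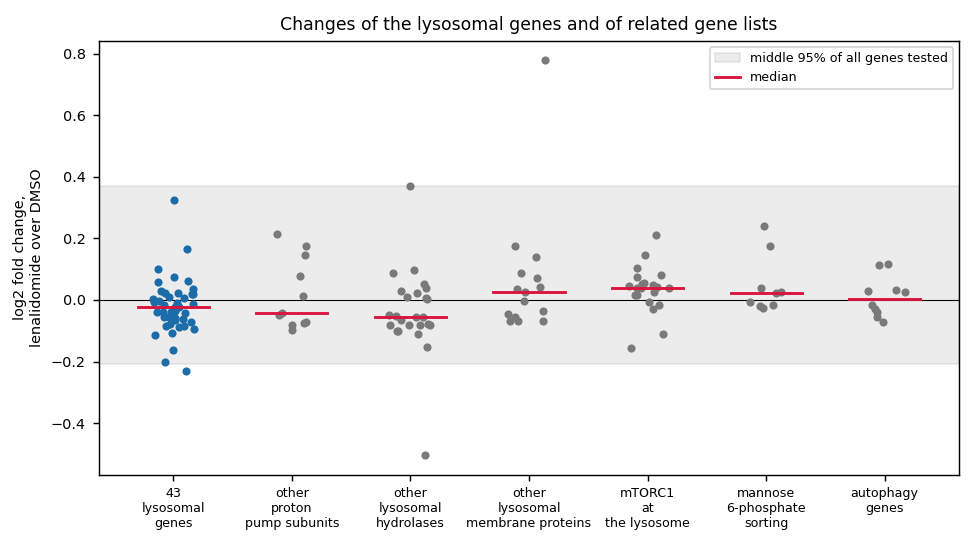
Log2 fold change of lenalidomide over DMSO for the 43 genes (blue) and for the tested genes of 6 related lists (grey), with a red line at each median and the middle 95% of all genes tested shaded, from -0.21 to 0.37. Of the 43 genes, TFEB alone lies outside the shaded range, and LMBRD1 is the highest point of the related lists at 0.78.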

How the data were processed

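RNA-seq was analysed from 4 DMSO and 4 lenalidomide libraries of Hct116 total RNA. The authors aligned the reads to hg19 with QuasR, with spliced alignment on and other settings at default, and deposited raw counts per UCSC known gene, without normalization, beside the exonic width of each gene. Per the labels, bcl2fastq 2.17 was used. Other versions and a strand setting are not given in the sources used here. Of 23459 rows, 70 had an Entrez identifier but no symbol (0.0223% of the counts) and were kept. Intronic counts were not used here.

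The counts went into edgeR 4.0.16 under R 4.3.3, with DESeq2 1.42.0 as an alternative. filterByExpr (minimum count 10, minimum total 15) kept 13925 genes. TMM factors ran from 0.971 to 1.02. Fold changes are from the quasi-likelihood fit, with Benjamini-Hochberg adjustment over all genes tested (threshold 0.05), and 95% intervals follow from its coefficient and F statistic. CPM per kilobase used the deposited widths. Libraries of 1 treatment differed beyond sampling noise (chi-square per degree of freedom 5.82 to 25.5), so that none was a copy of another. Intervals do not account for PCR duplicates. Mean CPM of single genes were compared by an exact permutation test. Positions and overlaps come from GENCODE on GRCh37, and promoter windows, searched on both strands, from RefSeq on GRCh38.p14. Scripts were tested on simulated counts.

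Genes named are the channels TPCN1, TPCN2 and MCOLN1, the TFEB family and LMBRD1, members at an unadjusted p under 0.05 or without overlap, the highest and lowest of each role group, the 3 most and 3 least variable, and listed genes at an unadjusted p under 0.05. Others were chosen after their values were seen. The 43 genes and all lists were chosen with earlier results of these data known. Alternatives covered scaling, test, filter, a replicate block, each library left out in turn, and TPM.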

Additional observations from a re-analysis of the deposited data

Results flagged for a closer look

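In each of the 86 groups of 4 values (43 genes, 2 treatments), the gap between an end value and its neighbour was divided by the range of the group, and 6 groups held a value apart from the other 3, where chance gives about 1 in 20 groups, or 4.3 here. For MCOLN1 this was DMSO replicate 1, at 2.54 CPM while its 3 partners had 3.07 to 3.12. CD63 in that library had 108.9 CPM and its partners 114.4 to 114.6. For GLB1, DMSO replicate 2 had 22.7 CPM and its partners 19.1 to 19.6. LIPA in DMSO replicate 3 had 29.5 CPM and its partners 34.7 to 35.8. In lenalidomide replicate 4, SMPD1 had 1.248 CPM where its partners had 1.581 to 1.598, and ATP6V1C1 had 174.3 where they had 187.7 to 188.4.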

How the results depend on the processing

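No member passed an adjusted p of 0.05 in any of the 14 alternatives, which comprised DESeq2, RLE scaling, a likelihood ratio test, a minimum of 1 count per gene, a minimum of 10 counts in every library, a replicate block and 8 fits without 1 library each. The median log2 fold change of the 43 genes, -0.024, stayed between -0.041 and -0.019 in all of them. The values of TPCN1, which was chosen on this contrast, ran from 0.28 to 0.36, and TFEB was below 0 in all 14, from -0.33 to -0.18. The genes past an adjusted p of 0.05 in the whole table, 2 by the quasi-likelihood test, numbered 9 by DESeq2, 12 by likelihood ratio, 4 under the minimum of 1 count and 6 under the replicate block. They were from 1 to 2 when each library was left out, and 1 in every such fit but that without lenalidomide replicate 4. TPCN1 is set aside in the next counts because it was chosen on this contrast. Of the other 42 members, NPC1 alone was at an unadjusted p under 0.05 at first, and none was with RLE scaling or DESeq2. The minimum of 1 count added OSTM1. Without DMSO replicate 3 they were OSTM1, NPC1, LAMP1, LIPA and CTSZ. None was left without DMSO replicate 1, 2 or 4 or lenalidomide replicate 4. NPC1 remained without lenalidomide replicate 1, NPC1 and ATP6V1E1 without lenalidomide replicate 2, and ATP6V1D alone without lenalidomide replicate 3. The cause was not tested. With the replicate block the member counted was again NPC1. Deviations of same-numbered libraries correlated across genes at 0.053, -0.0075, 0.0032 and 0.31 for replicates 1 to 4, the 12 other pairs ran from -0.34 to 0.18, and 1 of the 4 DMSO libraries correlated best with its own number, so that the numbers were not taken to pair the libraries, and which numbers were label swaps is not given in the labels. The 10 genes highest per length were the same 10 by TPM.

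For the 29 genes named by rule, 372 of 406 values kept their direction and their side of the threshold, and 34 changed sign, in 14 genes that had changed by no more than 0.061 (log2). ARSA was at -0.0030 under the minimum of 1 count and at -0.010 under the replicate block. With each library left out in turn, log2 fold changes ran from -0.27 to 0.18 for ARSA, -0.11 to 0.11 for TPCN2, -0.059 to 0.11 for MCOLN1, -0.011 to 0.025 for NPC2, -0.033 to 0.085 for TFE3, -0.11 to 0.059 for MITF, -0.032 to 0.011 for PSAP, -0.14 to 0.067 for CTSA, -0.021 to 0.092 for CTSL, -0.11 to 0.045 for TPP1, -0.062 to 0.016 for ATP6V0A1, -0.083 to 0.099 for ATP6V0E1, -0.023 to 0.0073 for ATP6V1B2 and -0.059 to 0.032 for ATP6AP2. Without 1 library, ATP6V1E1 went from -0.11 to -0.037 (DMSO replicate 3), ATP6V1H went from -0.089 to -0.042, ATP6AP1 from 0.060 to 0.019 and IGF2R from 0.24 to 0.15 (lenalidomide replicate 4), LAMP1 from -0.060 to -0.014 and TMEM192 from -0.086 to -0.047 (DMSO replicate 1), and SMPD1 from -0.16 to -0.082 (DMSO replicate 4).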
